A study of Homo sapiens with 9 samples.

Results

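The genes described here encode the proteins of the mitochondrial ribosome, and they were followed in HepG2 cells, an established human liver tumour line. They were chosen by a rule on names, which was set with earlier results of these data known. It took every annotated gene whose symbol consists of MRPL or MRPS and a number, with or without a final A, B or C. The rule gave 74 of the 57773 annotated features, and 73 of the 74 had enough reads to be tested. RNA was sequenced from 9 cultures, each seeded, treated, extracted and sequenced separately. There were 3 cultures exposed to the solvent alone (0.1% DMSO, the controls), 3 exposed to 2.5 µM tris(2-butoxyethyl) phosphate (TBOEP) and 3 exposed to 125 µM TBOEP, all for 72 h. TBOEP belongs to the organophosphate esters and serves as a flame retardant and as a plasticiser. Its solvent was present in all 9 cultures, and per the labels neither concentration was cytotoxic.

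Mitochondria keep their own ribosome, which translates the few messenger RNAs of the mitochondrial genome into core subunits of the respiratory chain and the ATP synthase. Its ribosomal RNAs are made inside the organelle, but all of its proteins are encoded in the nucleus, made in the cytosol and imported. The small subunit reads the messenger RNA and the large subunit joins the amino acids and leads the new chain through an exit tunnel to the inner membrane. Many of the proteins descend from bacterial ribosomal proteins, and others were added in the mitochondrial lineage.

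By structure, 48 of the 74 proteins belong to the large subunit and 25 to the small one. The names do not always follow this placement. MRPS18A and MRPS30 carry names of the small subunit but sit in the large one, and MRPS36 is now counted as a component of the 2-oxoglutarate dehydrogenase complex rather than of the ribosome. A bacterial ancestor is known for 45 of the proteins, 27 are found in mitochondria only, and 2 were left unclassified. The genes lie on 21 chromosomes. MRPL30 and MRPS17 are each split over 2 separately named features in the files, fall outside the name rule and are not counted among the 74.

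The stretches of DNA at the start of these genes are shown because several share short sequence elements. RefSeq windows (GRCh38.p14) from 250 bases before to 50 bases after the gene start were matched by symbol for 65 of the 74 genes. The element AAGATGGC, in which the letters of a YY1 binding motif lie, was searched on both strands. It was found in 21 of the 65 genes (32.3%), against 6.81% of 8961 tested genes with a window. Counted by window, it was in 28.4% of the 81 windows of these genes, against 2.89% of 35116 windows in all. Of the 24 matches, 18 lay on the strand of the gene and 17 lay within 50 bases of the gene start. The ETS motif CCGGAAGT was present in 12 of the 65 genes (18.5%), against 10.3% of tested genes. By window it was in 17.3% of their windows, against 4.14% of all windows. The NRF1 motif (GCGC, any base, then TGCGC) was present in 7 of the 65 genes (10.8%), against 13.9% of tested genes. By window the shares were 9.88% and 5.78%. The E-box CACGTG was present in 9 genes (13.8%), against 12.5% of tested genes, and by window the shares were 11.1% and 7.26%. Examples from 6 genes follow, 5′ to 3′ on the strand of each gene, with the matched letters in capitals. MRPL52, the gene with the smallest adjusted p of all 73, carries 2 YY1-type matches and 1 ETS match (chr14:22829787-22829888, plus strand). MRPL17 carries an NRF1 match (chr11:6683341-6683440, minus strand) and MRPS34 an ETS match (chr16:1773135-1773234, minus strand). The start elements of MRPL46 (chr15:88467363-88467390, minus strand) and MRPL45 (chr17:38297172-38297199, plus strand) each hold a YY1-type match. The stretch before MRPS6, the gene that fell, holds none of the 4 motifs (chr21:34073478-34073577, plus strand).
MRPL52: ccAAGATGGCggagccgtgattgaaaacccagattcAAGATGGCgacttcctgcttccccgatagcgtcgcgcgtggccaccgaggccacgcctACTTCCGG
MRPL17: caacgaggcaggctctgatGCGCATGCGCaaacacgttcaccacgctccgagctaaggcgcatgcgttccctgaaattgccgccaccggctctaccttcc
MRPS34: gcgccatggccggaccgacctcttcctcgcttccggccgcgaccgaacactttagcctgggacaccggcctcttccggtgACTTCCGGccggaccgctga
MRPL46: gggagaacgaAAGATGGCggcgcccgta
MRPL45: tgcgggaacAAGATGGCagcccccatac
MRPS6: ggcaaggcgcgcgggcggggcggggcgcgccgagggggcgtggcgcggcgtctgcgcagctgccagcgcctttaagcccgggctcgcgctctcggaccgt
These matches describe letters in a window and are not binding sites measured in these cells.

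Reads assigned to genes numbered between 2480964 and 11885877 per library, of which 7581 to 36725 fell in the 74 genes. The cultures carried the markers of liver cells, with ALB between 12100 and 42700 CPM (reads scaled to a common depth) and HNF4A between 269 and 332 CPM. Of the markers of other cell types, the immune markers PTPRC and CD3E and the fibroblast marker DCN were at 0 in all 9 libraries, and COL3A1 was at 0 in 8 (highest 0.105 CPM). The other immune marker, CD14, ran from 0.257 to 2.18 CPM, the endothelial markers CDH5 and VWF from 0 to 1.58 and from 0.166 to 3.25 CPM, and the fibroblast marker COL1A1 from 0 to 0.837 CPM. Summed, the 3 immune markers ran from 0.257 to 2.18 CPM in controls, from 1.12 to 1.62 CPM at 2.5 µM and from 1.47 to 1.99 CPM at 125 µM. The endothelial sums ran from 0.989 to 3.46 CPM, from 1.12 to 2.58 CPM and from 1.74 to 2.2 CPM in the same order of dose, and the fibroblast sums from 0.198 to 0.257 CPM, from 0.287 to 0.837 CPM and from 0 to 0.121 CPM. The summed level of 9 liver markers ran from 67900 to 91400 CPM in controls, from 57200 to 69200 CPM at 2.5 µM and from 42200 to 48900 CPM at 125 µM. The part of these sums in the results below was not tested. In these bulk cultures fewer cells and less RNA per cell cannot be told apart.

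Per exon length, the 74 genes spanned a wide range. In control libraries their mean RPKM (exon reads scaled by exon length and sequencing depth) ran from 0.256 to 57.1, with a median of 9.43; 33 genes averaged at least 10 RPKM and 8 averaged under 2. The genes with the highest control level were MRPL45, whose protein sits at the exit of the tunnel near the inner membrane, at 57.1 ± 3.31 RPKM, MRPS34 of the small subunit at 55.8 ± 7.97 RPKM, and MRPS35, also of the small subunit, at 38.9 ± 6.14 RPKM (SD, n = 3 each). MRPL45 and MRPS34 lay within each other's spread. At the low end stood MRPL53 at 0.256 ± 0.0646 RPKM, MRPL38 of the central protuberance at 0.768 ± 0.332 RPKM, and MRPL46, also of the central protuberance, at 1.45 ± 0.451 RPKM. MRPL53 had 38 reads in all 9 libraries together and was the gene that could not be tested.

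**Figure D1:**
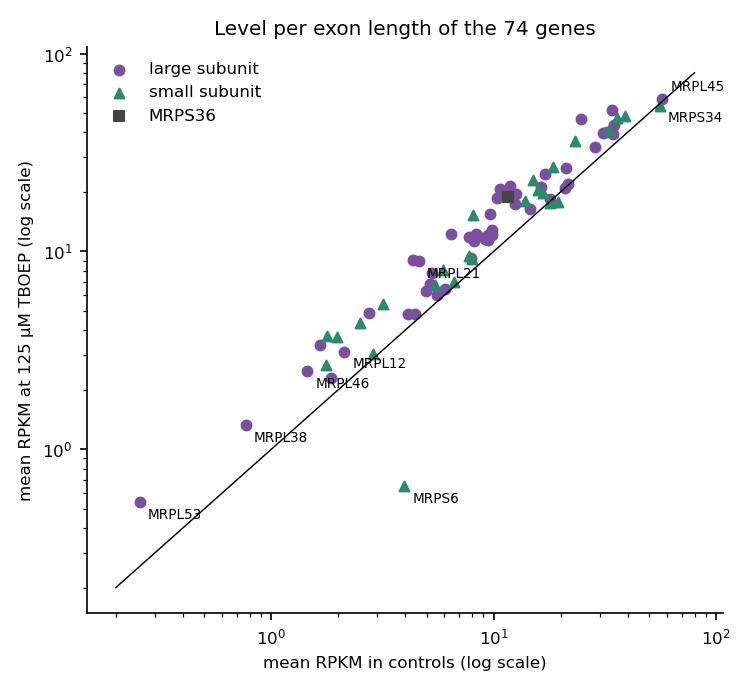
Mean RPKM of each of the 74 genes in controls (horizontal, log scale) and at 125 µM TBOEP (vertical, log scale), n = 3 libraries each; circles are large-subunit genes, triangles small-subunit genes and the square is MRPS36, and the line marks equal levels. Most points lie a little above the line, MRPL45 and MRPS34 lie close to it, and MRPS6 lies far below it, at 0.652 RPKM at 125 µM against 3.95 RPKM in controls.

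Taken as a whole, the 74 genes made up more of the messenger RNA in exposed cells. Their summed level was 2473, 2616 and 2579 CPM in the control libraries, 2758, 2992 and 3062 CPM at 2.5 µM, and 3048, 3048 and 3002 CPM at 125 µM. Every exposed library lay above every control, and the 2.5 µM and 125 µM libraries overlapped. As a share of all gene reads the values were 0.2345, 0.2684 and 0.2498% in controls, 0.2831, 0.2897 and 0.3056% at 2.5 µM, and 0.3098, 0.3090 and 0.3063% at 125 µM. No test was made on these sums, which describe the libraries.

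The 2 subunits did not contribute equally to this sum. Large-subunit genes summed to 1527 ± 55.5 CPM in controls, 1825 ± 115 CPM at 2.5 µM and 1879 ± 21.7 CPM at 125 µM, and small-subunit genes to 1010 ± 35.1, 1085 ± 43.7 and 1123 ± 7.57 CPM (SD, n = 3 each). The ratio of large to small was 1.516, 1.573 and 1.449 in controls, 1.640, 1.681 and 1.721 at 2.5 µM, and 1.671, 1.687 and 1.662 at 125 µM. No exposed library overlapped the controls in this ratio. On the RPKM scale the ratio was 1.758, 1.747 and 1.647 in controls, 1.775, 1.887 and 1.921 at 2.5 µM, and 1.849, 1.846 and 1.815 at 125 µM. Exposed libraries and controls did not overlap here either, but the first 2.5 µM library (1.775) lay only just above the first control (1.758). The small-subunit sum includes MRPS6, at 5.51 RPKM in the first control and 0.965 RPKM in the first 2.5 µM library. The large and small sums were 586 and 333 RPKM in that control, and 718 and 405 RPKM in that 2.5 µM library. The ratio without MRPS6 was not computed, so the lack of overlap on this scale is not shown apart from that gene.

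**Figure D2:**
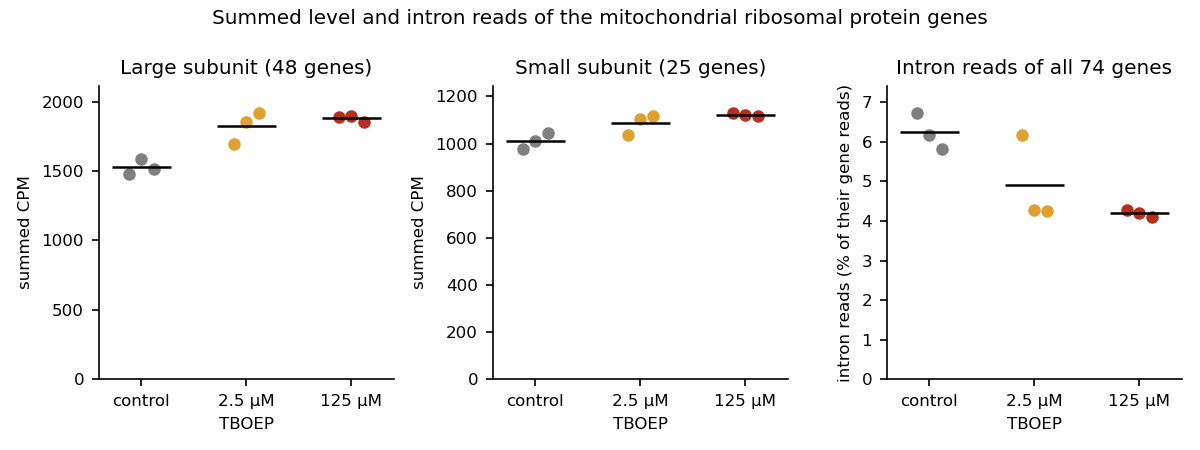
Summed CPM of the 48 large-subunit and 25 small-subunit genes, and the share of reads of all 74 genes that fell in introns, in each library by TBOEP concentration; points are libraries and bars are means of 3. The large-subunit sum lies at 1478 to 1587 CPM in controls and at 1854 to 1893 CPM at 125 µM, and the intron share is lower at 125 µM (4.11 to 4.27%) than in controls (5.81 to 6.74%).

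The share of reads from introns was lower at 125 µM than in controls. Of the reads of the 74 genes, 4.27, 4.20 and 4.11% lay in introns at 125 µM, against 6.74, 6.17 and 5.81% in controls, while the 2.5 µM libraries had 6.18, 4.28 and 4.25%. Over all features outside the mitochondrial genome the share was 6% ± 1.52 at 2.5 µM, where the first library (7.74%) lay above every control. It was 5.23% ± 0.298 at 125 µM and 6.87% ± 0.627 in controls (SD, n = 3 each). The part of this shift in the results was not tested directly, but with exon reads alone 33 of the genes rose and 2 fell at 125 µM, where all gene reads gave 34 and 1. The second gene to fall with exon reads was MRPS5 of the small subunit, by 0.24 on the log2 scale (adjusted p = 0.0479, edgeR).

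The comparison of 125 µM TBOEP with the solvent asked how 72 h at the high concentration changed these genes. Of the 73 tested genes, 34 rose (46.6%), 1 fell (1.37%) and 38 did not pass the threshold of 0.05 on the adjusted p of edgeR's quasi-likelihood test. Among all 12901 tested genes, 20.3% rose and 19.9% fell. The median log2 fold change of the 73 was 0.31, against 0.0036 over all tested genes, and 64 of the 73 had a positive sign. No gene of the group rose 2-fold (4.58% of all tested genes did), and 1, MRPS6, fell 2-fold or more (6.11% of all tested genes did). The libraries did not overlap between the 125 µM and control groups for 43 genes that were higher (58.9%, against 25.6% of all tested genes) and 2 that were lower (2.74%, against 25.2%). A limma fit to the deposited RPKM (pseudocount 0.5) called 41 of the 73 higher and 1 lower, and it called 2811 genes higher and 1413 lower among all tested, where edgeR called 2618 and 2562. In that fit the median of all genes lay at 0.0851 and the median of the 73 at 0.38; with a pseudocount of 0.1 they lay at 0.107 and 0.39.

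Both subunits took part. In the large subunit 22 of 47 tested genes rose and 0 fell (0 also at an unadjusted p under 0.05 in edgeR and with DESeq2), with a median log2 fold change of 0.31; in the small subunit 11 of 25 rose and 1 fell, with a median of 0.27. MRPS36, outside both, rose as well. Of genes with a bacterial ancestor 21 of 45 rose (46.7%) and 1 fell, and of genes found in mitochondria only 12 of 26 rose (46.2%). By place in the large subunit, 2 of 3 genes of the stalk, where translation factors dock, rose at 125 µM (66.7%). Of the central protuberance, which faces the small subunit, 3 of 6 rose (50%), and around the exit tunnel 2 of 7 (28.6%). Among all tested genes 20.3% rose, and the share around the exit tunnel is near that background. These places hold few genes and no difference between them was tested.

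**Figure D3:**
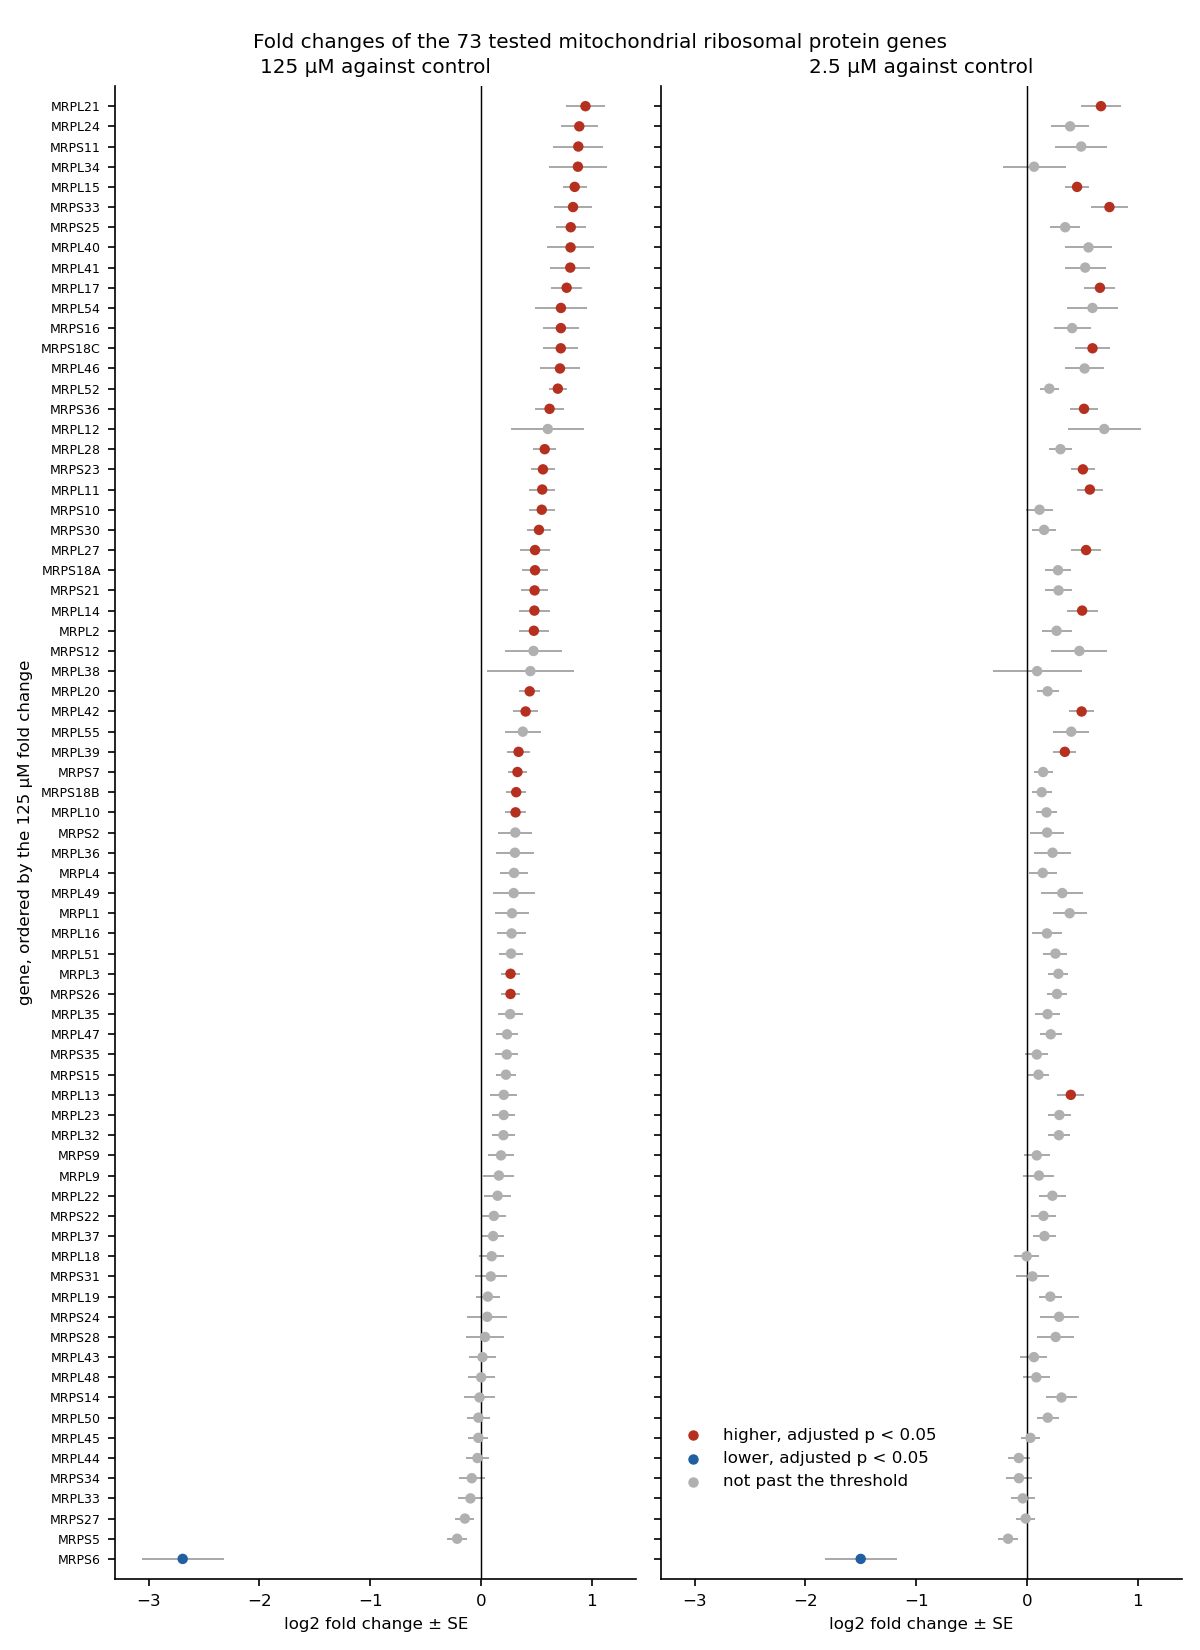
Log2 fold change ± SE (derived from edgeR's F statistic) of the 73 tested genes at 125 µM (left) and 2.5 µM (right) against control. Genes are ordered by the 125 µM value. Red marks genes that rose, blue genes that fell and grey genes not past an adjusted p of 0.05. At 125 µM 34 points are red and 1, MRPS6, is blue; at 2.5 µM 13 are red and MRPS6 is again blue.

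Among large-subunit genes MRPL21 rose most. It had 27.4, 25.3 and 26.1 CPM at 125 µM, against 11.3, 16.6 and 13.9 CPM in controls, a log2 fold change of 0.94 ± 0.17 (SE; adjusted p = 0.000692, edgeR). All 3 exposed libraries were above all controls. MRPL24, which lies by the exit tunnel, had 15.8, 16.7 and 15.0 CPM at 125 µM and 7.86, 10.1 and 8.21 CPM in controls (0.89 ± 0.17, adjusted p = 0.000895, edgeR). MRPL15, a large-subunit protein with a bacterial ancestor, had 52.5, 57.2 and 58.7 CPM at 125 µM and 29.1, 35.6 and 28.7 CPM in controls (0.85 ± 0.11, adjusted p = 5.23e-05, edgeR). Neither gene overlapped between the groups.

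MRPL34 was among the scarcer members, with 4.85, 5.89 and 6.24 CPM at 125 µM and 3.46, 3.17 and 2.05 CPM in controls (0.88 ± 0.26, adjusted p = 0.0154, edgeR). It overlaps ABHD8, and since it is not stated whether strand was used in the counting, reads of the 2 genes cannot be told apart. MRPL40 of the central protuberance had 9.47, 9.05 and 10.3 CPM at 125 µM and 4.19, 6.93 and 5.64 CPM in controls (0.81 ± 0.21, adjusted p = 0.00727, edgeR). It overlaps HIRA, which had 1719 reads in all libraries where MRPL40 had 496.

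The gene with the smallest adjusted p was MRPL52, a large-subunit protein found in mitochondria only, whose start region is printed above. It had 72.7, 74.5 and 74.9 CPM at 125 µM and 45.7, 46.7 and 44.6 CPM in controls, a log2 fold change of 0.69 ± 0.08 (adjusted p = 2.92e-05, edgeR). Replicates lay within a few CPM of each other in both groups, and the groups were far apart.

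In the small subunit the rises were led by MRPS11, a protein of the platform, MRPS33 and MRPS25. MRPS11 had 15.4, 11.7 and 15.4 CPM at 125 µM and 5.98, 8.31 and 9.24 CPM in controls (0.88 ± 0.23, adjusted p = 0.0065, edgeR). MRPS33, found in mitochondria only, had 25.0, 27.6 and 31.6 CPM at 125 µM and 14.6, 16.8 and 15.4 CPM in controls (0.83 ± 0.17, adjusted p = 0.00146, edgeR). Both were higher in every exposed library than in any control. MRPS25, likewise without a bacterial ancestor, had 26.2, 25.6 and 25.7 CPM at 125 µM and 12.4, 16.6 and 16.2 CPM in controls (0.81 ± 0.13, adjusted p = 0.000301, edgeR), and it overlaps NR2C2.

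MRPS11 starts back to back with MRPL46 on chromosome 15. MRPL46 had 18.1, 14.6 and 15.0 CPM at 125 µM and 9.65, 12.3 and 6.93 CPM in controls (0.71 ± 0.18, adjusted p = 0.00518, edgeR), so this pair of one large-subunit and one small-subunit gene rose together. Both overlap a further annotated feature, RP11-97O12.7, which had 216 reads in all. Other pairs of genes with neighbouring starts gave mixed values. In MRPL18 and TCP1, MRPL36 and NDUFS6, MRPL50 and ZNF189, and MRPS12 and SARS2, neither gene passed at 125 µM. MRPL21, MRPL27, MRPS18C and FAU rose, while their partners IGHMBP2, EME1, HELQ and MRPL49 did not pass. The remaining pairs with tested neighbours, described next, were picked after their values were seen. MRPL47, which overlaps ACTL6A, stood at 0.24 ± 0.10 (adjusted p = 0.0726, edgeR), while NDUFB5, a subunit of respiratory complex I, rose by 0.90 ± 0.12 (adjusted p = 7.39e-05), and the difference between them was not tested. MRPL52 rose while SLC7A7, an amino acid transporter gene that starts next to it, fell by 1.54 on the log2 scale (SE 0.47, adjusted p = 0.0174).

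The human mitochondrial ribosome has 3 relatives of the bacterial protein S18. MRPS18C, in the small subunit, had 22.3, 23.0 and 20.6 CPM at 125 µM and 14.2, 12.9 and 13.1 CPM in controls (0.72 ± 0.16, adjusted p = 0.00248, edgeR). MRPS18A, in the large subunit, had 33.3, 32.0 and 29.7 CPM at 125 µM and 21.0, 26.5 and 21.0 CPM in controls (0.49 ± 0.12, adjusted p = 0.00446). MRPS18B, also in the small subunit, had 88.8, 99.3 and 83.0 CPM at 125 µM and 71.3, 74.8 and 73.4 CPM in controls (0.32 ± 0.09, adjusted p = 0.0103). All 3 rose without overlap between the groups, and differences among the 3 were not tested. MRPS18A overlaps RSPH9, MRPS18B overlaps PPP1R10 and MRPS18C overlaps FAM175A.

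The misnamed members rose too. MRPS30 of the large subunit had 50.8, 52.6 and 52.1 CPM at 125 µM and 33.5, 41.4 and 33.6 CPM in controls (0.52 ± 0.11, adjusted p = 0.00129, edgeR). MRPS36 had 26.8, 32.3 and 32.3 CPM at 125 µM and 19.8, 20 and 19.2 CPM in controls (0.62 ± 0.13, adjusted p = 0.00156).

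MRPS6 was the exception to the rises. It encodes the relative of bacterial S6, which pairs with S18 on the platform of the small subunit, and it spans chr21:35445524-35515334 (hg19, plus strand). It had 25.5, 9.50 and 18.5 CPM in controls, 4.11, 9.30 and 5.25 CPM at 2.5 µM, and 3.16, 2.66 and 2.57 CPM at 125 µM. The controls were highest and the 125 µM libraries lay below all others, while the second control stood just above the highest 2.5 µM library. The fall at 125 µM against control was 6.46-fold (log2 fold change -2.69 ± 0.37, adjusted p = 7.83e-05, edgeR), and at 2.5 µM against control it was 2.83-fold (-1.50 ± 0.32, adjusted p = 0.0121). Between 125 µM and 2.5 µM the log2 fold change was -1.19 ± 0.41 (adjusted p = 0.0634).

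Part of the reads of MRPS6 crossed a junction between exons. These junction reads numbered 129, 29 and 36 in controls, 22, 49 and 8 at 2.5 µM, and 18, 18 and 4 at 125 µM, and intron reads were 0 in all 9 libraries. MRPS6 shares its first exon with SLC5A3, a gene for an inositol transporter, and both SLC5A3 features in the files are listed at 0 reads in every library. AP000320.7, which overlaps MRPS6, had 83, 12 and 15 reads in controls, 35, 28 and 3 at 2.5 µM, and 1, 5 and 1 at 125 µM, and it fell at 125 µM by 4.09 on the log2 scale (adjusted p = 0.000136, edgeR). How reads of this locus were divided among the overlapping features is not given in the sources used here, so the fall of MRPS6 is uncertain to that extent. SLC6A12, a betaine transporter gene, is named here after its values were seen. It had 503, 101 and 260 CPM in controls, 28.1, 71.0 and 10.1 CPM at 2.5 µM, and 9.10, 2.41 and 12.5 CPM at 125 µM. Its 3 controls had the same order as those of MRPS6, while in both exposed groups the order of libraries differed. A link between SLC6A12 and MRPS6 was not tested.

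At 2.5 µM against control fewer genes passed the threshold. Of the 73, 13 rose (17.8%) and 1 fell (1.37%), against 6.02% and 5.03% of all tested genes, and 59 did not pass. Their median log2 fold change was 0.26, and 66 of the 73 had a positive sign. Libraries did not overlap for 32 higher genes (43.8%, against 14.4% of all tested genes) and 2 lower ones (2.74%, against 13.8%). In the large subunit 9 of 47 rose, and in the small subunit 3 of 25 rose and 1 fell. This count rests on few libraries. Without the first control it was 0 higher and 0 lower, and without the third control 5 higher. Without the second 2.5 µM library it was 4 higher, and without the third 6. In those fits 1.37%, 3.05%, 4.81% and 2.4% of all tested genes were higher, in the same order. Without the second 2.5 µM library, 4 of the 73 is near that background. The limma fit to RPKM gave 5 higher and 0 lower (171 higher and 45 lower over all genes), where edgeR gave 776 and 649.

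The largest rise at 2.5 µM was that of MRPS33, at 19.5, 29.8 and 30.7 CPM, against 14.6, 16.8 and 15.4 CPM in controls (0.75 ± 0.17, adjusted p = 0.0158, edgeR). MRPL21 had 16.9, 24.3 and 25.9 CPM at 2.5 µM (0.67 ± 0.18, adjusted p = 0.0276), just above its highest control. Both genes had their lowest exposed value in the first 2.5 µM library, the one with the highest intron share of that group. MRPL17, which lies by the exit tunnel, had 31.8, 40.2 and 50.1 CPM at 2.5 µM and 25.5, 26.3 and 22.3 CPM in controls (0.66 ± 0.14, adjusted p = 0.0115). MRPS18C had 15.8, 22.8 and 24.2 CPM at 2.5 µM (0.59 ± 0.16, adjusted p = 0.0304).

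MRPL11, at the base of the stalk, had 35.0, 40.2 and 47.7 CPM at 2.5 µM and 26.5, 26.3 and 28.2 CPM in controls (0.57 ± 0.12, adjusted p = 0.0106, edgeR). At 125 µM it had 39.1, 38.1 and 42.6 CPM, so its level at the high concentration fell within the range at the low one. MRPL13 of the large subunit was the only member that rose at 2.5 µM (0.40 ± 0.12, adjusted p = 0.0493) without passing at 125 µM (0.21 ± 0.12, adjusted p = 0.198), and its direct comparison between the concentrations did not pass (-0.19 ± 0.12, adjusted p = 0.31). The 2 comparisons with the solvent use the same 3 control libraries.

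The direct comparison of 125 µM with 2.5 µM tested which genes differed between the concentrations. Of the 73, 7 were higher at 125 µM (9.59%) and 0 were lower, against 7.48% and 7.44% of all tested genes; the share of higher genes is near the background. At an unadjusted p under 0.05, edgeR counted 10 higher and 2 lower, and DESeq2 with adjusted p counted 3 higher and 1 lower. The median log2 fold change was 0.05. The groups did not overlap for 13 higher genes (17.8%, against 16.9% of all) and 6 lower ones (8.22%, against 15.9%). Of the 34 genes that rose at 125 µM against control, 12 also rose at 2.5 µM, and 1 gene, MRPL15, passed in all 3 comparisons. Both comparisons with the solvent use the same controls. The share of joint rises over all tested genes was not counted, so the 12 have no background to be read against.

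MRPL52 had the smallest adjusted p of the 7, with 72.7, 74.5 and 74.9 CPM at 125 µM and 54.6, 52.7 and 49.3 CPM at 2.5 µM (0.49 ± 0.08, adjusted p = 0.00122, edgeR). MRPS25 had 18.9, 19.1 and 17.4 CPM at 2.5 µM (0.47 ± 0.13, adjusted p = 0.0245), all below its 125 µM values. MRPS10, a protein of the head of the small subunit, had 45.3, 49.5 and 52.5 CPM at 125 µM and 33.6, 36.0 and 40.4 CPM at 2.5 µM (0.43 ± 0.12, adjusted p = 0.0225). MRPL15 reached 38.8, 44.4 and 45.6 CPM at 2.5 µM, between its control and 125 µM levels (0.39 ± 0.11, adjusted p = 0.0226).

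MRPS30 had 40.2, 37.6 and 44.4 CPM at 2.5 µM (0.37 ± 0.10, adjusted p = 0.0278, edgeR), and its 2.5 µM libraries overlapped the controls. MRPL34, at 2.77, 2.97 and 4.85 CPM at 2.5 µM, differed by 0.81 ± 0.25 (adjusted p = 0.0439), with the third 2.5 µM library level, to the digits given, with the first 125 µM library. MRPL24 had 10.8, 13.1 and 8.48 CPM at 2.5 µM (0.50 ± 0.16, adjusted p = 0.0485). Of these 7 calls, only that of MRPL52 held under all 20 alternative settings.

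**Figure D4:**
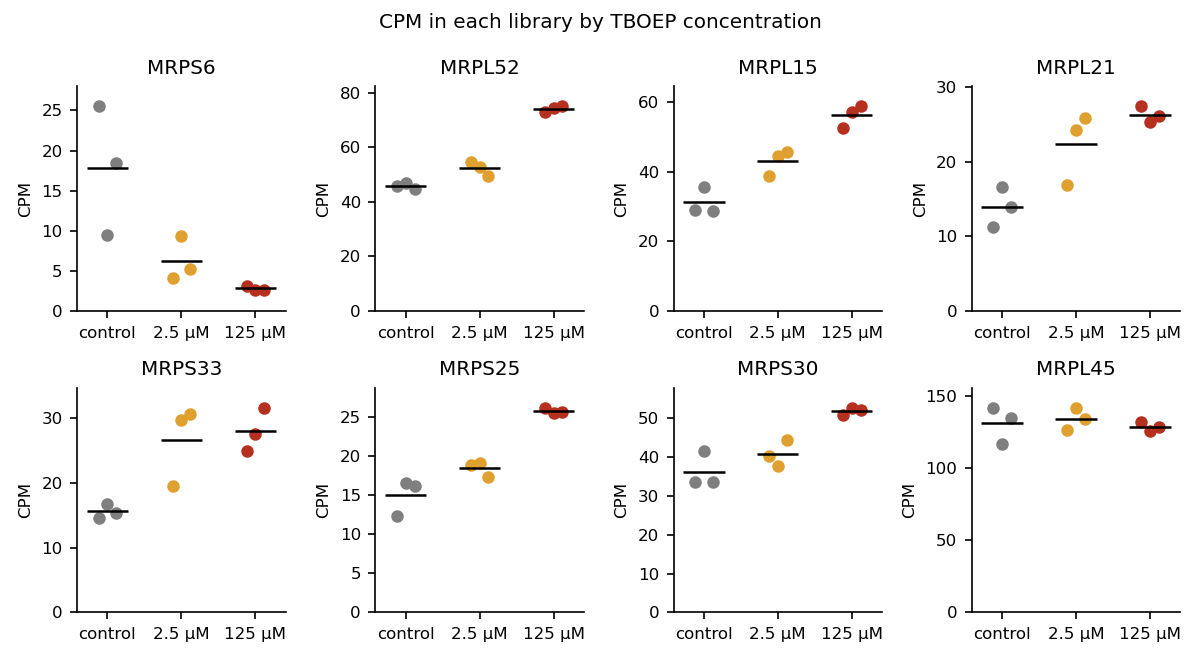
CPM in each library of 8 genes by TBOEP concentration; points are libraries and bars are means of 3. MRPL52 separates the 125 µM libraries (72.7 to 74.9 CPM) from the rest, MRPS33 lies above its controls in every 2.5 µM library, MRPS6 is lowest at 125 µM (2.57 to 3.16 CPM), and MRPL45 lies between 117 and 142 CPM throughout.

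The most abundant members per length were among those that did not pass. MRPL45 had 132, 126 and 129 CPM at 125 µM and 142, 117 and 135 CPM in controls, and the groups overlapped. MRPS34 had 70.8, 54.9 and 55.1 CPM at 125 µM and 58.3, 71.0 and 64.1 CPM in controls. MRPS35 had 88.6, 95.2 and 106 CPM at 125 µM and 74.2, 92.4 and 78.5 CPM in controls. None of the 3 passed the threshold in any comparison, with adjusted p at 125 µM of 0.864, 0.607 and 0.0827 in that order (edgeR). The scarce MRPL38 had 4.13, 2.74 and 9.54 CPM at 125 µM and 2.83, 4.75 and 2.31 CPM in controls, with overlap. MRPL12, the stalk protein that contacts translation factors, had 3.16, 3.49 and 2.94 CPM at 125 µM and 1.89, 1.58 and 3.33 CPM in controls (0.60 ± 0.33, adjusted p = 0.162), again with overlap. The untested MRPL53 had 0.849, 0.581 and 1.1 CPM at 125 µM and 0.419, 0.396 and 0.257 CPM in controls, values at or near the level of 3 reads in several libraries.

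The log2 fold change was also set against properties of the genes that the name rule did not use. Across the 73 genes the log2 fold change at 125 µM had a Spearman correlation of -0.41 with the length of the gene on the chromosome. It was -0.37 with mean level and -0.18 with exon length. Over all 12901 tested genes the values were -0.13, 0.01 and -0.10. With the share of a gene's reads in introns the correlation was -0.24 across the 73 genes and -0.23 over all tested genes. The median intron share was 2.79% in the 73 genes and 8.27% over all tested genes. Genes are not independent replicates, and they share libraries and depth. The 73 genes are short, with a median span of 11504 bases and 2464 exon bases, against 31353 and 4540 over all tested genes. Among members with at most 1500 exon bases 8 of 14 rose at 125 µM, while 24.0% of all 938 tested genes of that length did. In the longest class, above 4000 exon bases, 4 of 14 members rose and 1 fell, while 17.5% of all 7398 genes rose and 23.0% fell. Genes with and without the YY1-type element had median log2 fold changes of 0.32 and 0.30 at 125 µM.

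Some members share their place with other genes. Of the 74 genes, 38 overlap a feature with reads. Among them is MRPL49, with 436 reads in all, which overlaps FAU, a gene for a cytosolic ribosomal protein with 11049 reads.

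The list of proteins of or at the mitochondrial ribosome under other names had 8 tested genes. Of these, 6 rose at 125 µM and 1 fell (75% and 12.5%, against 20.3% and 19.9% of all tested genes). AURKAIP1, a small-subunit protein, had 38.2, 40.3 and 45.5 CPM at 125 µM and 26.2, 23.9 and 26.7 CPM in controls (0.67 ± 0.13, adjusted p = 0.00107, edgeR). MRP63 of the large subunit rose by 0.49 ± 0.11 (adjusted p = 0.00313) and DAP3, a GTP-binding protein of the small subunit, by 0.40 ± 0.09 (adjusted p = 0.00384). PTCD3 of the small subunit fell by 0.24 on the log2 scale (SE 0.08, adjusted p = 0.0217). At 2.5 µM 3 of the 8 rose (37.5%, against 6.02% of all tested genes) and 0 fell in edgeR. At an unadjusted p under 0.05 in edgeR 4 were higher and 0 lower, and DESeq2 gave 2 and 0.

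Other factors build the ribosome or serve it in translation. Of 22 assembly factors 3 rose at 125 µM and 0 fell, also at an unadjusted p (13.6% rose, below the 20.3% of all tested genes), led by MRM1, which methylates the large ribosomal RNA, at 0.97 ± 0.22 (adjusted p = 0.0027, edgeR). Of 12 translation factors 4 rose and 2 fell (33.3% and 16.7%). The elongation factor GFM1 rose by 0.41 ± 0.10 (adjusted p = 0.00453) and GUF1 by 0.64 ± 0.17 (adjusted p = 0.0089). C12orf65, a factor that rescues stalled ribosomes, had 9.59, 5.48 and 8.81 CPM at 125 µM and 56.5, 16.8 and 34.9 CPM in controls (-2.29 ± 0.38, adjusted p = 0.000327). At 2.5 µM 0 assembly factors passed in edgeR or DESeq2 (3 were higher at an unadjusted p under 0.05 in edgeR), and C12orf65 was the only translation factor that did in edgeR (-1.42, adjusted p = 0.0201) but not in DESeq2.

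Of 12 genes of mitochondrial transcription and RNA handling 2 rose at 125 µM (16.7%, below the 20.3% of all tested genes). SLIRP, which stabilises mitochondrial messenger RNAs, rose by 0.60 ± 0.14 (adjusted p = 0.00347, edgeR) and HSD17B10, a component of mitochondrial RNase P, by 0.51 ± 0.14 (adjusted p = 0.00846). Among 10 transcriptional regulators of mitochondrial genes 3 rose and 1 fell (30% and 10%, against 20.3% and 19.9% of all tested genes), a count over few genes. The coactivator PPARGC1A had 84.9, 83.7 and 83.7 CPM at 125 µM and 50.5, 49.9 and 53.1 CPM in controls (0.72 ± 0.08, adjusted p = 2.58e-05), and PPARGC1B rose by 1.41 ± 0.24 (adjusted p = 0.000421). YY1 had 113, 104 and 127 CPM at 125 µM and 163, 152 and 150 CPM in controls (-0.45 ± 0.09, adjusted p = 0.00152). NRF1 and GABPA did not pass (-0.16 ± 0.12, adjusted p = 0.297, and -0.26 ± 0.12, adjusted p = 0.103). At 2.5 µM 0 of the 10 passed in edgeR or DESeq2, and 2 were higher and 2 lower at an unadjusted p under 0.05 in edgeR.

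The cytosolic ribosome and respiratory complex I are set beside these genes for comparison. Of 81 tested cytosolic ribosomal protein genes 65 rose at 125 µM and 64 at 2.5 µM, with median log2 fold changes of 0.57 and 0.53. Of 36 nuclear genes for complex I 25 rose at 125 µM and 15 at 2.5 µM, with medians of 0.53 and 0.38. These are 80.2% and 79% of the cytosolic ribosomal genes and 69.4% and 41.7% of the complex I genes. Among all tested genes 20.3% rose at 125 µM and 6.02% at 2.5 µM. The differences between these groups and the 73 genes were not tested.

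**Figure D5:**
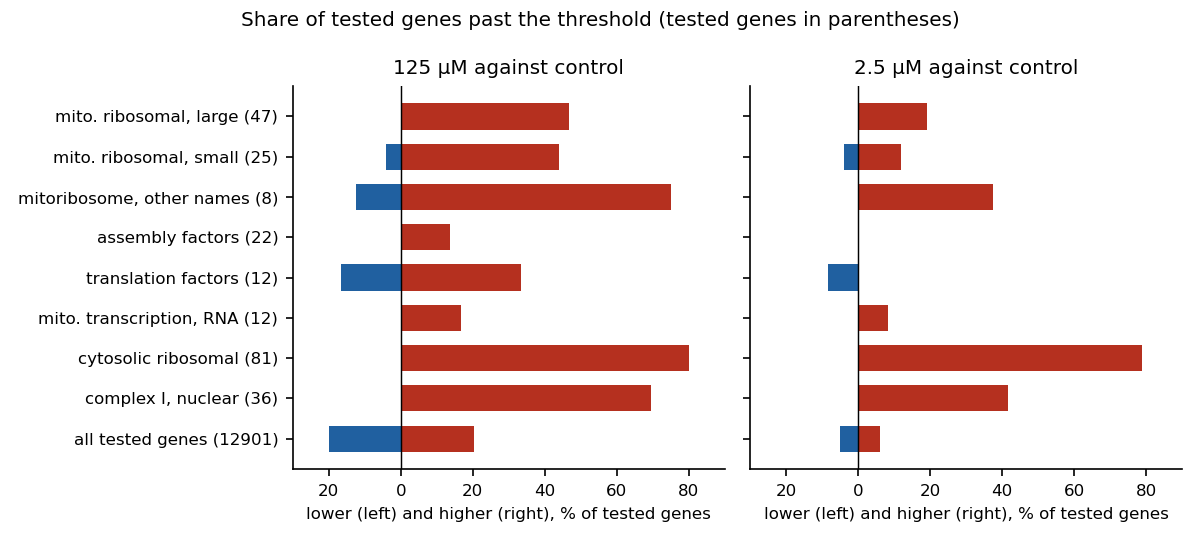
Share of tested genes that rose (red, to the right) or fell (blue, to the left) at an adjusted p under 0.05 in each group of genes, at 125 µM (left panel) and 2.5 µM (right panel) against control, with the number of tested genes in parentheses. At 125 µM 46.8% of large-subunit and 44% of small-subunit genes rose, against 20.3% of all tested genes.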

How the data were processed

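RNA from 9 HepG2 cultures was sequenced as paired 50 bp reads from TruSeq stranded mRNA libraries, per the labels' protocols. Per the series' design text, CLC Genomics Workbench aligned the reads to hg19 and assigned them to genes. Its version, and whether strand entered the counting, were not given in the sources used here. Per the file headers, the deposited counts of total, unique, exon and intron reads of each gene are not normalised, and they are whole numbers. In the deposited RPKM, exon reads are divided by exon length and depth. The authors also deposited a quantile-normalised signal, which is not used here.

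Total gene reads were filtered with filterByExpr (12901 genes kept), scaled by TMM and fitted by quasi-likelihood in edgeR 4.0.16 (R 4.3.3), with all 9 libraries in 3 groups and no covariate. Two-sided contrasts were adjusted by Benjamini-Hochberg across the 12901 genes, and calls were made under 0.05. CPM values are TMM-scaled. Each SE was derived from that fit, as the absolute log2 fold change divided by the square root of its F statistic. The steps were also run on simulated counts, whose outcome is not reported here. Those counts gave every gene the same relative spread, unlike the real libraries, so they do not vouch for single calls. Cultures were seeded separately, so p-values measure the spread between such cultures. File positions on hg19 had 1 added to their start.

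Members and gene lists were chosen with earlier results of these data known. Genes described in every library were the 8 largest rises and falls past the threshold at 125 µM, the 5 at 2.5 µM, 6 with the smallest adjusted p between the concentrations, the 3 highest and 3 lowest by control RPKM, and those with a separate placement, plus up to 3 per other list. MRPL12, MRPL13, MRPS5, MRPL24 between the concentrations, PTCD3, NRF1, GABPA and the neighbouring genes were added after their values were seen. Alternatives were other scalings, filters, read types and models (DESeq2 1.42.0, limma 3.58.1 on log2(RPKM + pseudocount)), the replicate number as a block, and leaving out each library.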

Additional observations from a re-analysis of the deposited data

Results flagged for a closer look

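The direct comparison of 125 µM with 2.5 µM TBOEP picked out 7 genes whose response differed between the concentrations in edgeR's quasi-likelihood test. Their log2 fold changes between the concentrations were 0.49 for MRPL52, 0.43 for MRPS10, 0.39 for MRPL15, 0.47 for MRPS25, 0.37 for MRPS30, 0.81 for MRPL34 and 0.50 for MRPL24. As a share of the 73 tested genes (9.59%) they lie near the 7.48% of all tested genes.

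Outside the name rule, 2 related features also passed at 125 µM against control. MRPS17_2, one of the 2 features into which MRPS17 is split, had 2.18, 1.74 and 2.57 CPM at 125 µM and 0.734, 0.791 and 0.513 CPM in controls (log2 fold change 1.52 ± 0.52, adjusted p = 0.0314, edgeR), while the other, MRPS17_1, had a log2 fold change of -0.49 ± 0.41 (adjusted p = 0.366). MRPL23-AS1, an antisense RNA gene at MRPL23, had 5.58, 5.15 and 6.97 CPM at 125 µM and 3.98, 2.57 and 2.05 CPM in controls (0.86 ± 0.28, adjusted p = 0.0242).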

How the results depend on the processing

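At 125 µM against control, 24 of the 35 calls held under all 20 alternatives; at 2.5 µM against control 0 of 14 did, and between the concentrations 1 of 7. Leaving out 1 library at a time gave 25 to 38 members higher and 1 lower at 125 µM (3557 to 5351 genes called in all), 0 to 17 higher and 0 to 1 lower at 2.5 µM (213 to 2050 genes), and 1 to 7 higher and 0 to 1 lower between the concentrations (799 to 2230 genes). The ratio of summed CPM ranged over 1.165 to 1.203, 1.129 to 1.183 and 1.002 to 1.054 in the same order. It was 1.205 with upper-quartile scaling and 1.159 with exon reads at 125 µM, and 1.015 with exon reads between the concentrations. Exon reads gave 2 members lower at 125 µM. At 2.5 µM, fitting only the 2 groups gave 731 genes and 7 members higher, RPKM with pseudocount 0.5 gave 216, 5 and 0 lower, and with 0.1 it gave 0, 0 and 0. Between the concentrations MRPS6 made 1 member lower with no filter, DESeq2, the 2 groups only or exon reads; DESeq2 gave 3 higher, RPKM with 0.5 gave 968 genes and 3 members, and with 0.1 it gave 864 and 2. The cause of these shifts was not tested.

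The replicate block gave 35 higher and 1 lower, 10 and 1, and 6 and 0 members in the 3 comparisons. Of all tested genes 19.8%, 5.47% and 6.72% were higher under this setting, in the same order. Same-numbered libraries did not deviate together in every pair (correlations from -0.241 to 0.184). Differently numbered libraries gave correlations from -0.268 to 0.268. With 3 libraries per group this check cannot decide whether the numbers pair the cultures.

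Values turned sign in 29 cases, each for a value that had not passed the threshold. At 125 µM, MRPL45 was 1e-04 with upper-quartile scaling, 0.0397 and 0.04 with RPKM and -0.096 to 0.0379 without 1 library (0.0012 without 125 µM replicate 2), and MRPS34 was -0.2176 to 0.0016. At 2.5 µM, MRPL45 was -0.001 with exon reads and -0.0407 to 0.0946 without 1 library (-0.0171 without 2.5 µM replicate 2), MRPL34 -0.0681 to 0.24 (-0.0679 without 2.5 µM replicate 3), MRPS10 -0.0237 to 0.1897, MRPL38 -0.0651 to 0.398 (-0.0403 without control 3) and MRPS34 -0.1483 to 0.0124. Between the concentrations, MRPL11 was 0.0206 and 0.0213 and MRPS34 0.0244 and 0.0246 with RPKM. Without 1 library MRPL11 was -0.1217 to 0.0699 (0.0146 without 125 µM replicate 2), MRPS34 -0.1521 to 0.0671 (0.0362 without 125 µM replicate 3, 0.0494 without 2.5 µM replicate 1), MRPL38 -0.0558 to 0.7741, the members' median -0.0015 to 0.0869, MRPS33 -0.1301 to 0.2395, MRPL17 -0.0455 to 0.2366 and MRPS18C -0.0664 to 0.256; the lowest of these last 4 came without 2.5 µM replicate 1.

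The shallowest library had 2480964 reads, where 3 reads equal 1.21 CPM, which limits MRPL53, MRPL12 and MRPL38.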
